A study of Mus musculus with 14 samples.

Results

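This account follows 37 genes of the neuronal cytoskeleton and of axon growth through 14 mouse lung tumours. They were taken by their symbols from the 46517 genes of one expression table, and all 37 were found. They comprise 5 tubulins, 4 stathmins, 8 proteins that bind microtubules, 5 subunits of intermediate filaments, 5 collapsin response mediator proteins (CRMPs), 4 kinesin motors and 6 proteins of growth cones, actin and membranes. The genes were chosen by their FPKM levels in both tumour models of this table, which were already known, so the difference between the models is described here and not tested as a finding.

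The tumours came from 2 genetically engineered mouse models of SCLC (small cell lung cancer), which is a neuroendocrine carcinoma. Both models carry Rb1 fl/fl and Trp53 fl/fl alleles. RPM mice (n = 11 tumours) carry in addition a lox-stop-lox Myc T58A allele, as LSL/LSL in 9 tumours and as LSL/+ in RPM replicates 2 and 4. RPR2 mice (n = 3 tumours) carry in addition fl/fl alleles of Rbl2, which encodes p130. In every mouse an adenovirus delivered Cre under the Cgrp promoter, so deletion and Myc activation depended on the cells in which that promoter is active. Tumours were untreated, fresh or frozen, and were cut from the lung by eye, so each library also holds RNA of neighbouring lung cells. Fewer cells of one type and less RNA per cell cannot be told apart in such bulk samples. The title numbers put RPM replicates 6 and 7, and replicates 10 and 11, under a shared number. The labels do not say whether that number is an animal, and spread between libraries may therefore be partly within an animal. The labels' identifiers of the RPR2 libraries belong to another series than those of the RPM libraries, so that series and the model cannot be told apart. Within RPM, replicate 9 carries an identifier of a series of its own, and the other 10 libraries share one.

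Microtubules are hollow polymers of alpha- and beta-tubulin, and neurons use particular tubulin isotypes, with TUBB3 as the best known marker. Stathmins bind free tubulin and favour shrinkage, whereas doublecortin, tau and the MAP proteins bind and stabilise the lattice. Neurofilaments give axons their calibre, kinesins carry cargo along microtubules away from the cell body, and CRMPs, GAP43 and drebrin act where the growing axon tip meets its surroundings. Neuroendocrine tumours of the lung are known to express many of these genes.

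Levels are given as FPKM, fragments per kilobase of transcript scaled to the number of mapped fragments, a unit that corrects for transcript length. Differences are given on the scale of log2(FPKM + 1), which understates the change of genes with low levels, with a standard error (SE). A gene was called higher or lower where limma gave a Benjamini-Hochberg adjusted p under 0.05 over the 15719 genes that reached 1 FPKM in 3 or more libraries. All 37 genes met that minimum, although Dcx and Camkv met it through RPM alone, since these 2 stayed under 1 FPKM in each RPR2 library. A gene under 1 FPKM in any of the 3 RPR2 libraries could not meet it without RPM values. In RPR2 replicate 3 alone that held for 23 of the 37. Single-read steps in the low values put the depth at about 17.4 to 20.0 M reads in RPM and 21.3 to 22.8 M in RPR2.

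RPR2 replicate 3 stood apart from the rest. Its summed FPKM over 8 markers of alveolar type 2 cells was 51962, against 1256 and 1984 in RPR2 replicates 1 and 2 and 15.6 to 892 in RPM. Its sum over 10 neuroendocrine markers was 66.5, against 3386 and 4408 in the other RPR2 tumours and 294 to 1612 in RPM. It was the lowest of all 14 libraries for 29 of the 37 genes, where 29.0% of all tested genes had their lowest value, and 23 of the 37 were under 1 FPKM there. The part of this library's cell make-up in the results was not tested, and every comparison of the models is therefore given with and without it. Markers of glia and peripheral neurons were read in every library as well. The sum over 10 Schwann cell and glial markers was 22.2 to 49.8 FPKM in RPM, and the RPR2 tumours had 91.8, 114.7 and 149.9. Sox10 reached at most 0.08 FPKM and Cdh19 at most 0.04, whereas Mbp stood at 6.87 to 50.76 and Pmp22 at 5.93 to 23.82, and Mal and Erbb3 reached 85.46 and 43.14 in RPR2 replicate 3. The sum over 10 markers of autonomic and sensory neurons, 5 of which stayed under 1 FPKM in every library, was 0.93 to 9.28 in RPM and 4.77, 2.71 and 0.30 in RPR2. Their part in the results was not tested.

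Promoter sequences are shown for 4 of the genes, 2 of which, Dcx and Kif5c, varied together among RPM tumours. Tubb3 is shown as the neuronal tubulin and Fez1 for the E-box that MYC and MAX are known to bind. Each line holds the 250 bases before a RefSeq start on the sense strand, 5′ to 3′, in GRCm38.p6, and capitals mark the pattern CANNTG, the general E-box, which the lines of Tubb3 and Dcx do not hold.
Tubb3, chr8:123411303-123411552, plus strand: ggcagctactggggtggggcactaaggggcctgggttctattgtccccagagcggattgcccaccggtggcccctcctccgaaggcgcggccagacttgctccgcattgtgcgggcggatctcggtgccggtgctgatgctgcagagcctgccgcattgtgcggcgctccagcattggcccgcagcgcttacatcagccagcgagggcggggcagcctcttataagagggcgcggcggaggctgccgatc
Dcx, chrX:143933125-143933374, minus strand: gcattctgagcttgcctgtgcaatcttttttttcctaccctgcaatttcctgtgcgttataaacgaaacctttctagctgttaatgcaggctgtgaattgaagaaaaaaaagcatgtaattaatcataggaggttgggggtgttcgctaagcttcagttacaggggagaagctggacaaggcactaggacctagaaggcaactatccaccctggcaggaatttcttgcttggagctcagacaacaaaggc
Kif5c, chr2:49619036-49619285, plus strand: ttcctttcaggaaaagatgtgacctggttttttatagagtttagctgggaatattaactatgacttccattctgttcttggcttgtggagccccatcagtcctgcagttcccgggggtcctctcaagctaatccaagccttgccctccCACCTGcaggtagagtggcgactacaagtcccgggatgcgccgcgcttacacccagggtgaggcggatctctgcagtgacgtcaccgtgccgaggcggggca
Fez1, chr9:36832490-36832739, plus strand: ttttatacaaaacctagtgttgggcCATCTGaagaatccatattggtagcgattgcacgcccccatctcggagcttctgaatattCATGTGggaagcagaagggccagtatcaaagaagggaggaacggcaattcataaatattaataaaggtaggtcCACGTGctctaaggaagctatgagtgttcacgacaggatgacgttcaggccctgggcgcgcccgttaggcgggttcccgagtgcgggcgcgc
RefSeq windows of 300 bases, from 250 before to 50 after a start, were at hand for 23 of the 37 genes, 32 windows in all. The E-box CACGTG, which reads the same on both strands, lay in 2 of the 32 windows (6.25%), one of Fez1 and one of Kif1a, against 7.15% of 32851 windows over all genes. The wider pattern CANNTG, which includes CACGTG, lay in 20 windows (62.5%) against 72.3%. RE1, the long element bound by the neuronal repressor REST, was in none of the 32 windows on either strand and in 0.0639% of all windows. The windows of these genes had a median GC content of 60.2%, against 52.7% over all genes. These are matches of letters in one short window, and neither a match nor its absence shows what binds there.

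With all libraries 22 of the 37 genes were called higher in RPM than in RPR2, none was called lower and 15 were not called. Over all tested genes 18.4% were called higher and 22.8% lower, and since these genes were picked with this contrast known, nothing is read from the gap. Without RPR2 replicate 3, 17 were called higher and none lower, beside 16.2% and 28.5% of all genes, and 16 were called higher both ways. The median difference over the 37 genes was 2.34 with all libraries and 1.68 without RPR2 replicate 3, beside -0.06 and -0.22 over all genes tested. In 11 genes every RPM tumour lay above every RPR2 tumour, a separation that 11.1% of all genes showed. Leaving RPR2 replicate 3 out, 13 genes separated so, beside 16.2% of all genes. The 11 were Tubb3, Tuba1a, Stmn4, Dcx, Dclk1, Mapt, Dpysl4, Dbn1, Fez1, Rtn1 and Camkv.

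**Figure D1:**
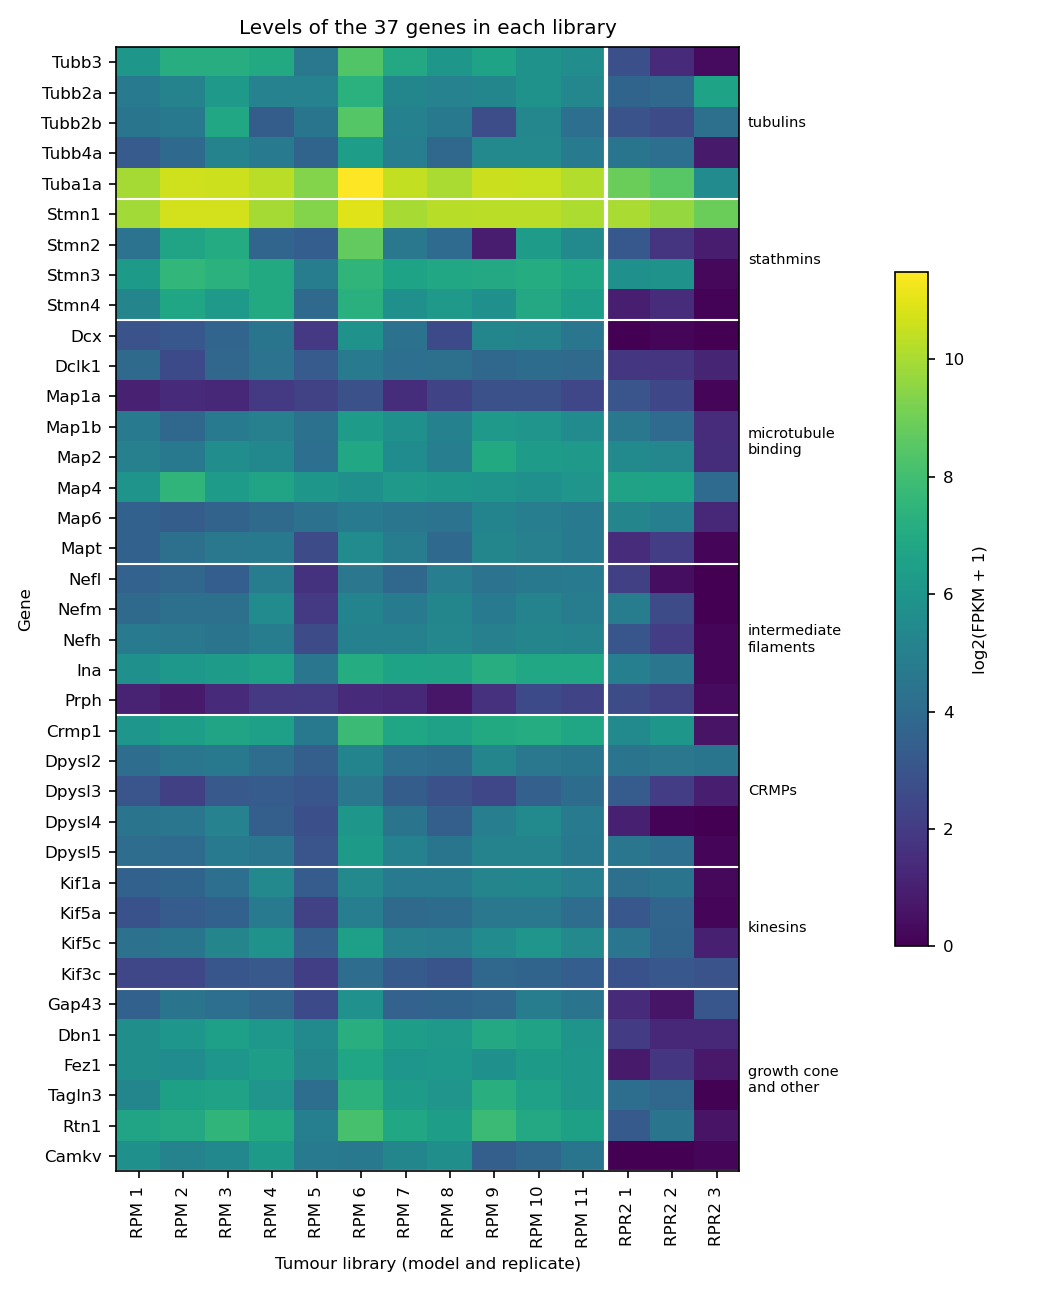
Levels of the 37 genes in each library as log2(FPKM + 1), with rows ordered by role and columns by model and replicate. RPR2 replicate 3, the last column, was the lowest library for 29 genes, and within RPM replicate 5 was the lowest for 25 and replicate 6 the highest for 26.

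Among the 5 tubulins, Tubb3 and Tuba1a were called higher in RPM with all libraries, and Tubb2a joined them without RPR2 replicate 3. Tubb3 (class III beta-tubulin, chromosome 8, 123411424 to 123422015, plus strand) stood at 23.5 to 333 FPKM in RPM with a median of 100.2. The RPR2 tumours were at 5.99, 1.64 and 0.27. No RPR2 tumour reached the lowest RPM tumour, and the difference was 4.99 ± 0.61 (SE, n = 11 and 3), or 4.41 ± 0.68 without RPR2 replicate 3. Tuba1a, an alpha-tubulin of developing neurons, was among the most abundant of the 37 genes, at 656 to 2875 FPKM in RPM (median 1377) against 473, 359.6 and 46.3 in RPR2. Its groups did not overlap either, with a difference of 2.72 ± 0.53, and 1.68 ± 0.38 without the third RPR2 tumour. Tuba1a is hard to count: 72.9% of the 50-base stretches of its annotated transcripts also occur in other genes, 46.9% in Tuba1c, and its value depends on how shared reads were divided.

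The other beta-tubulins behaved differently from library to library. Tubb2a stood at 25.3 to 163 FPKM in RPM (median 37.4) and at 11.9, 13.5 and 101 in RPR2. RPR2 replicate 3, low for most of these genes, was thus higher than 10 of the 11 RPM tumours for Tubb2a. The difference was 0.75 ± 0.57 and not called with that library, and 1.71 ± 0.49 and called without it, where all 11 RPM tumours lay above both RPR2 tumours. Tubb2b ran from 5.61 FPKM in RPM replicate 9 to 348 in replicate 6 (median 23.8), against 6.61, 5.15 and 18.05 in RPR2, and was not called. Tubb2a and Tubb2b share sequence, 45.6% of the 50-base stretches of Tubb2a being found in Tubb2b, and part of either value may belong to the other. Tubb4a, a beta-tubulin of neurons and oligodendrocytes, was at 8.72 to 85.85 FPKM in RPM (median 26.3) and at 21.05, 17.1 and 0.80 in RPR2. Both of the first RPR2 tumours lay inside the RPM range for Tubb4a.

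Of the 4 stathmins, 3 were called higher with all libraries and only Stmn4 without RPR2 replicate 3. Stmn4 stood at 14.25 to 158 FPKM in RPM (median 73.45) against 0.96, 1.72 and 0.07 in RPR2. No RPR2 tumour came near the lowest RPM tumour, and the difference was 5.30 ± 0.54, or 4.93 ± 0.63 without the third RPR2 tumour. Stmn1, the stathmin of dividing cells, was high in both models, at 664 to 1975 FPKM in RPM (median 1204) and at 1044, 823 and 480.0 in RPR2, and was not called. Stmn3 was at 27.3 to 197 FPKM in RPM (median 121) and at 53.0, 58.9 and 0.20 in RPR2. Its call (2.83 ± 0.87) rested on RPR2 replicate 3, since the difference was 0.98 ± 0.50 without that library. Stmn2, which is known for its part in axon regrowth, had the widest range within RPM, from 0.91 FPKM in replicate 9 to 429 in replicate 6 (median 23.1). The RPR2 tumours, at 8.10, 2.28 and 0.82, overlapped with it. Its difference of 3.12 ± 1.17 was called in the full comparison and in 11 of 24 alternatives. It was 2.59 ± 1.40 and not called without RPR2 replicate 3, and 2.89 ± 1.47 and not called when title numbers entered as a random effect. Without RPM replicate 9, the library with an identifier series of its own, it was 3.53 ± 0.96 and called.

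**Figure D2:**
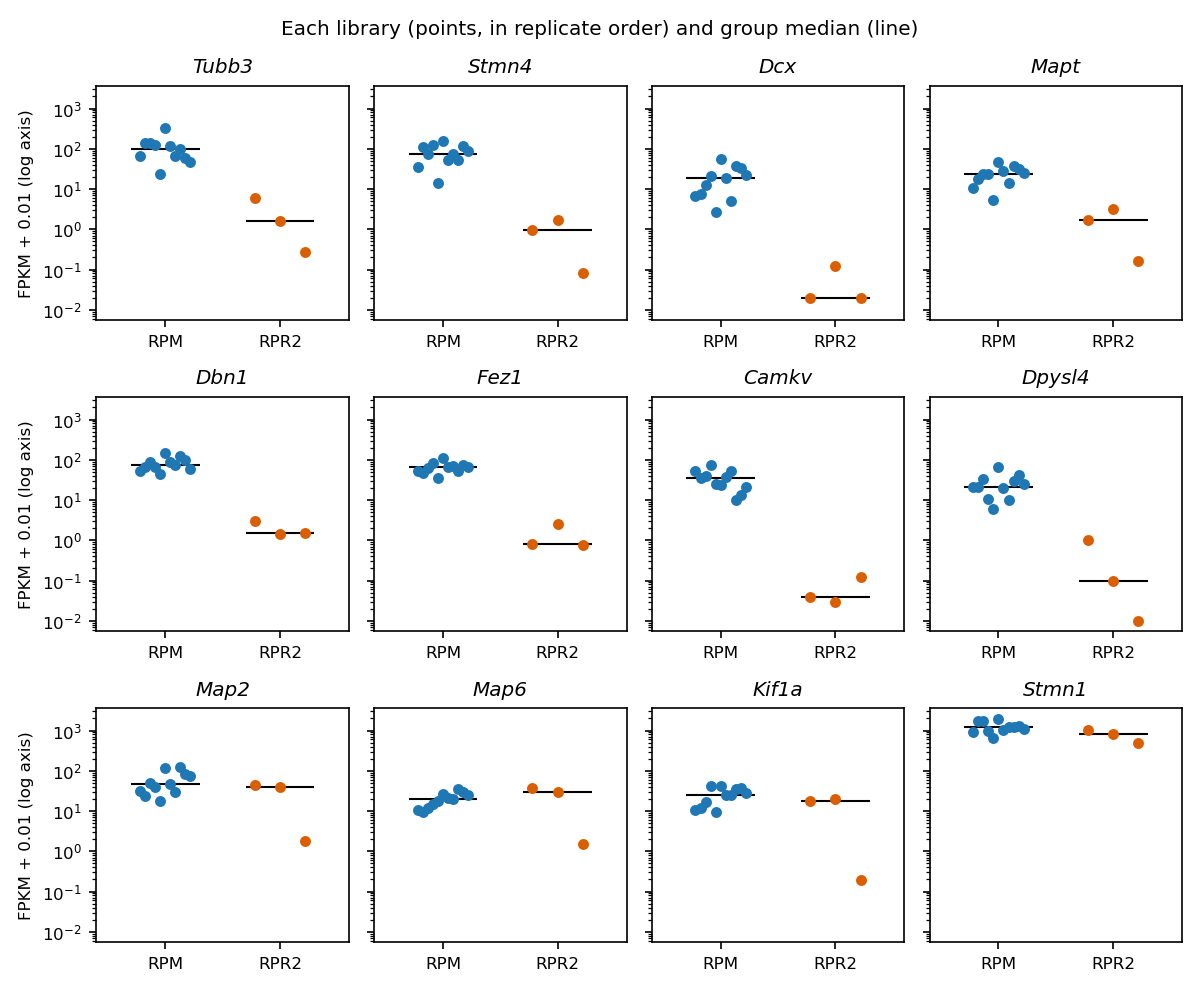
FPKM on a log axis, with 0.01 added so that zeros can be drawn, for 12 of the genes. Each point is a library and each line a group median. In the upper rows all RPM tumours lie above all RPR2 tumours, while in the bottom row RPR2 replicates 1 and 2 lie within or just above the RPM range and replicate 3 lies below it.

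The proteins that bind microtubules split into 2 kinds. Dcx, Dclk1 and Mapt were called higher with and without RPR2 replicate 3, while Map1b was called only with it and Map1a, Map2, Map4 and Map6 were called in neither. Dcx (doublecortin, chromosome X, 143855842 to 143933311, minus strand), the marker of migrating young neurons, stood at 2.73 to 56.1 FPKM in RPM with a median of 18.9. In RPR2 it was almost silent, at 0.01, 0.11 and 0.01 FPKM, and the groups were far apart (3.92 ± 0.67, and 3.90 ± 0.81 without replicate 3). Dclk1, a kinase with a doublecortin domain, was at 4.90 to 25.7 FPKM in RPM (median 14.46) against 2.58, 2.31 and 1.27, a difference of 2.34 ± 0.34. Mapt, which encodes tau, was at 5.28 to 45.6 FPKM (median 24.2) against 1.72, 3.27 and 0.15. All RPM tumours exceeded all RPR2 tumours for both, and the difference of Mapt was 3.21 ± 0.51, or 2.69 ± 0.55 without the third RPR2 tumour.

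For the classical MAP genes the groups overlapped with and without RPR2 replicate 3, and none of these genes was called without it. Map2, the dendritic microtubule protein, was at 17.3 to 126 FPKM in RPM (median 46.97) and at 43.3 and 38.9 in RPR2 replicates 1 and 2, inside the RPM range, with 1.84 in replicate 3. Map1b was at 13.9 to 78.3 FPKM in RPM (median 32.1) against 23.35, 15.4 and 1.79, and its difference went from 1.86 ± 0.58 to 0.91 ± 0.53. Map6, which protects microtubules from cold, stood at 9.41 to 35.55 FPKM in RPM (median 19.7) and at 36.4, 29.7 and 1.51 in RPR2. For Map6, 10 of 11 RPM tumours lay below both RPR2 replicates 1 and 2, and the difference went from 0.48 ± 0.61 to -0.77 ± 0.40 without replicate 3. Map4, the ubiquitous member of this family, was at 53.3 to 183 FPKM in RPM (median 65.8) against 96.8, 100.4 and 15.1, and its difference went from 0.46 ± 0.46 to -0.42 ± 0.34. Map1a was low, at 1.09 to 6.26 FPKM in RPM against 7.21, 4.70 and 0.11, and its sign turned as well (0.17 ± 0.53 to -0.71 ± 0.46). None of these 3 negative differences was called.

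Of the 5 intermediate filament genes, Nefl, Nefh and Ina were called higher both ways, Nefm only with RPR2 replicate 3, and Prph in neither. The neurofilament light gene Nefl was at 2.23 to 28.9 FPKM in RPM (median 20.1) and at 3.46, 0.34 and 0 in RPR2, a difference of 3.18 ± 0.58. One RPM tumour, replicate 5, fell below RPR2 replicate 1. The heavy subunit gene Nefh was at 5.27 to 38.8 FPKM (median 31.2) against 7.54, 3.19 and 0.13 (2.95 ± 0.54). Ina, which encodes alpha-internexin, was the most abundant filament gene of the list, at 22.1 to 139.8 FPKM (median 95.9) against 30.45, 21.45 and 0.12 (3.20 ± 0.75, and 1.68 ± 0.50 without replicate 3). In each of these 3 genes 10 of 11 RPM tumours lay above RPR2 replicates 1 and 2, and the exception was RPM replicate 5. The medium subunit gene Nefm was at 2.92 to 45.99 FPKM (median 24.9) against 27.5, 5.29 and 0.01. RPR2 replicate 1 was thus above the RPM median for Nefm, and its call (2.02 ± 0.78) held in 8 of 24 alternatives. The call of Nefm was lost when title numbers entered as a random effect (1.94 ± 0.80). Prph, the peripherin of peripheral neurons, was low in both models, at 0.60 to 5.03 FPKM among RPM tumours, with values of 5.39, 3.75 and 0.28 in RPR2. Annotated exons of Nefl and Nefm overlap on opposite strands over 32.8% of the exon bases of Nefl, and 14.1% of those of Ina overlap with Nt5c2. The libraries were made with a stranded kit, but whether counting used the strand is not given in the sources used here.

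CRMPs bind tubulin dimers and relay semaphorin signals in the growth cone. Within this family Dpysl4 was called higher with and without RPR2 replicate 3, Crmp1 only with it, and Dpysl2, Dpysl3 and Dpysl5 in neither. Dpysl4 stood at 6.09 to 65.7 FPKM in RPM (median 21.5) and at 1.02, 0.09 and 0 in RPR2. The groups did not overlap, with a difference of 4.11 ± 0.53, or 3.92 ± 0.63 without the third RPR2 tumour. Crmp1 was at 23.8 to 227 FPKM in RPM (median 104) and at 44.45, 65.99 and 0.50 in RPR2, a difference of 2.53 ± 0.83 that became 0.79 ± 0.53. Dpysl5 was at 7.07 to 74.5 FPKM (median 24.2) against 21.96, 17.45 and 0.13, with the first RPR2 tumours inside the RPM range. Dpysl2 had nearly equal levels in all 3 RPR2 tumours, 20.4, 22.6 and 20.9 FPKM, within its RPM range of 10.3 to 37, and its difference was -0.05 ± 0.29. Dpysl3, below 23 FPKM everywhere, was at 9.27, 3.23 and 0.98 in RPR2 and was not called.

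Among the 4 kinesins Kif5c, a neuronal heavy chain of kinesin-1, was the one called higher with all libraries, and none of the 4 was called without RPR2 replicate 3. Kif5c was at 10.7 to 88.65 FPKM in RPM (median 36.7) against 22.1, 11.97 and 1.01 in RPR2 (2.09 ± 0.63, then 1.05 ± 0.56). Kif1a, the motor of synaptic vesicle precursors, was at 9.31 to 41.8 FPKM in RPM (median 25.2) and at 18.2, 20.1 and 0.18 in RPR2, and Kif5a at 3.83 to 28.95 (median 15.96) and at 7.79, 12.4 and 0.16. Both overlapped between the models apart from RPR2 replicate 3. Kif3c, a motor subunit of the kinesin-2 family, stayed at 6.35, 7.57 and 6.72 FPKM in RPR2, inside its RPM range of 3.41 to 16.2. Antisense exons of 1110002L01Rik cover 35.3% of the annotated exon bases of Kif3c.

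All 6 genes of growth cones, actin and membranes were called higher with and without RPR2 replicate 3. Dbn1 encodes drebrin, which links actin to microtubules at the growth cone, and stood at 44.3 to 144 FPKM in RPM (median 73.85) against 3.04, 1.46 and 1.52. Fez1, an adaptor that couples cargo to kinesin-1, was at 36.1 to 109 FPKM (median 64.96) against 0.78, 2.54 and 0.75. These 2 genes had the smallest standard errors among the large differences, 4.75 ± 0.30 for Dbn1 and 4.84 ± 0.28 for Fez1, and RPR2 replicate 3 lay with the other RPR2 tumours for both. Camkv, a kinase-like protein of synaptic vesicles, was at 10.06 to 75.2 FPKM in RPM (median 34.6) and near 0 in RPR2, at 0.03, 0.02 and 0.11 (4.89 ± 0.46). Rtn1, a reticulon of the endoplasmic reticulum of neuroendocrine cells, was at 30.5 to 282 FPKM (median 120.1) against 8.61, 20.7 and 0.51 (4.13 ± 0.65). Tagln3, a neuronal transgelin, was at 17 to 167 FPKM (median 78.5) against 17, 13.97 and 0.04. For Tagln3, RPM replicate 5 and RPR2 replicate 1 had the same value. Gap43, the growth-associated protein of axon tips, was at 4.95 to 54.95 FPKM (median 13.8) against 1.55, 0.59 and 7.44. RPR2 replicate 3 was the highest of its group for Gap43, and the difference was larger without it (3.06 ± 0.56) than with it (2.38 ± 0.54).

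**Figure D3:**
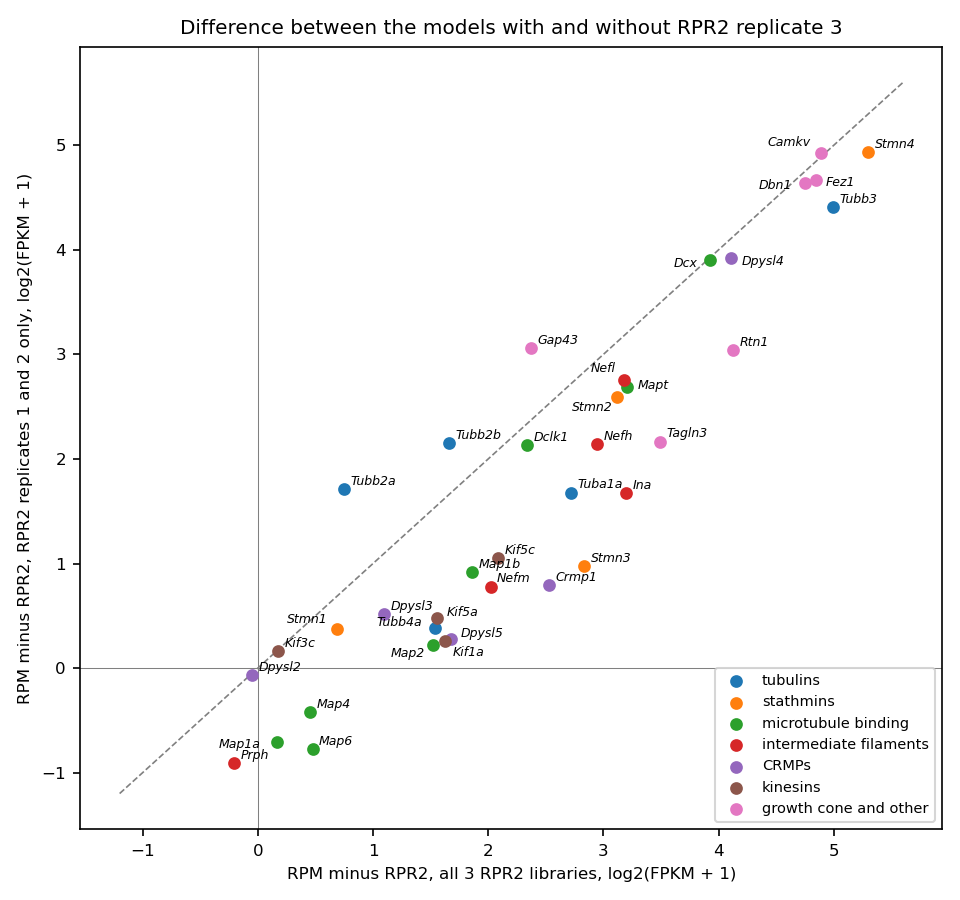
Difference between RPM and RPR2 on the log2(FPKM + 1) scale with all 3 RPR2 tumours (horizontal axis) and with RPR2 replicates 1 and 2 only (vertical axis). Each point is a gene coloured by role, and the dashed line marks equal values. Dbn1, Fez1, Camkv, Dcx and Dpysl4 lie close to the line, whereas Crmp1 (2.53 and 0.79) and Stmn3 (2.83 and 0.98) lie far below it and Tubb2a and Gap43 above it.

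Calls of 16 of the 37 genes held in every alternative setting that was run, leaving out each library in turn included. Another 5 genes (Map1a, Map2, Map6, Dpysl2 and Kif3c) were called in no alternative. The matching shares over all genes were not counted. These genes were picked with this contrast known, so nothing about them is read from these counts. Under scaling to equal totals (TPM), 17 genes were called higher and none lower, beside 11.9% and 22.8% of all genes, and that scaling moved the median of all genes from -0.06 to -0.23.

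Proportions within families are described next. The families were put together after the levels had been seen, so these shares carry no test. Tubb3 made up 2.79 to 13.4% of the summed FPKM of 7 beta-tubulins in RPM (median 7.15%), and 0.782, 0.259 and 0.0425% in RPR2. Tubb4b, a widely expressed isotype, took 10.3 to 21.6% in RPM and 34.3, 38.99 and 39.2% in RPR2. Tubb5, the isotype of dividing cells, was the largest component in every RPM tumour, with 51.997 to 68.6%. In RPR2 it took 52.9, 49.7 and 36.5%, and it was the largest component in replicates 1 and 2 there too. The share of Tubb4b therefore did not overlap between the models and ran opposite to that of Tubb3. Its level did overlap, at 172 to 272 FPKM in RPM against 263, 247 and 249 in RPR2, and Tubb4b was not called. The sum of the 7 beta-tubulins, by which the shares are divided, was 842 to 2481 FPKM in RPM against 766, 633 and 635 in RPR2. Among the kinesin-1 heavy chains, Kif5b, which most cells express, took 33.1 to 76.7% in RPM and 82.5, 83.2 and 88.98% in RPR2, with RPM replicate 5 as the RPM tumour nearest to RPR2. Tuba1a and Tuba1b together formed most of the alpha-tubulin signal in RPM, where Tuba1c took 0.103 to 3.32%, against 10.02, 6.37 and 15.6% in RPR2. The split between Tuba1a and Tuba1c depends on reads that both genes share.

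**Figure D4:**
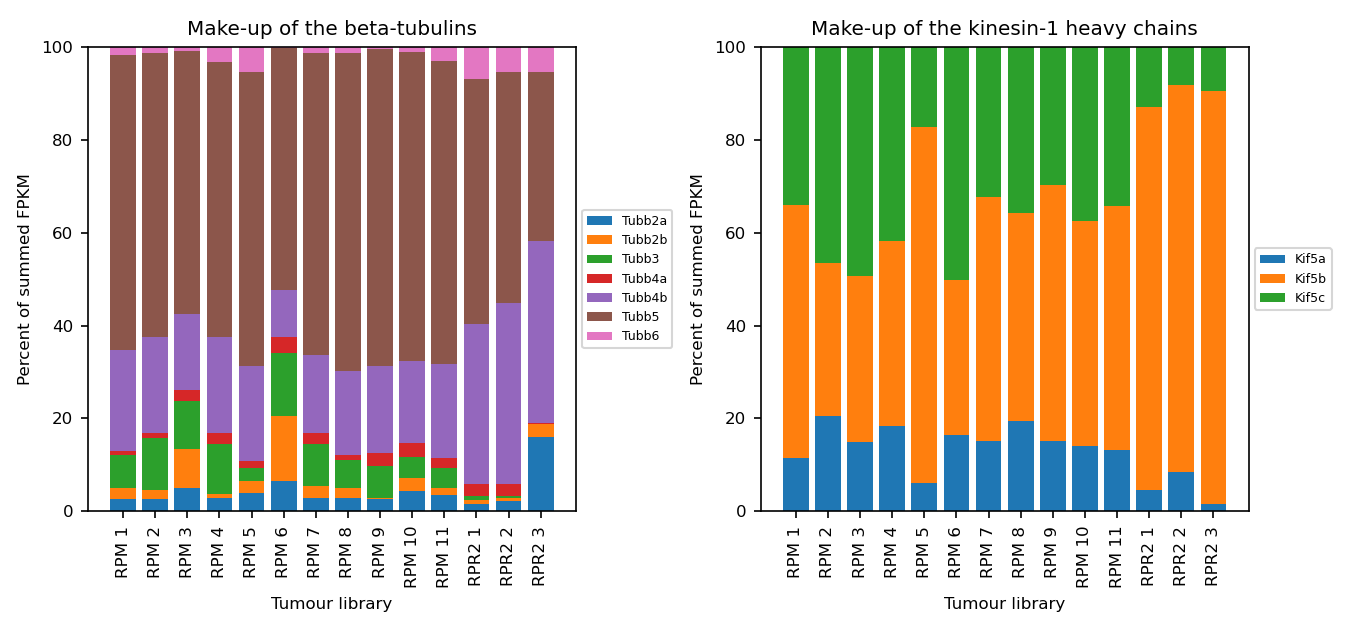
Share of each gene in the summed FPKM of the beta-tubulins (left) and of the kinesin-1 heavy chains (right), in percent, for each library. Tubb3 takes 2.79 to 13.4% in RPM and under 1% in RPR2, and Kif5b takes over 82% in the RPR2 tumours only.

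Within the RPM model most of the 37 genes had their highest level in the same tumour, and most had their lowest level in one other. RPM replicate 6 was the highest of the 11 tumours for 26 of the 37 genes, while it was the highest for 11.4% of all tested genes, and RPM replicate 5 was the lowest for 25, against 11.6% of all genes. The counts were 26 and 23 under TPM scaling and 24 and 25 under median-of-ratios scaling. Summed over the 37 genes the levels were 8567 FPKM in replicate 6 and 1879 in replicate 5, and the other RPM tumours lay between 2903 and 5053. Tuba1a and Stmn1 alone made up most of this sum in every RPM tumour. They stood at 2875 and 1975 FPKM in replicate 6 and at 656 and 664 in replicate 5. The sum thus says little about the less abundant genes. The summed neuroendocrine markers were likewise lowest in replicate 5 (294) and highest in replicate 6 (1612), and those of autonomic and sensory neurons were lowest in replicate 5 (0.93) and stood at 7.85 in replicate 6. Markers of club and ciliated cells had their highest sum in replicate 5 (1535) and their lowest in replicate 6 (1.94), and those of alveolar type 2 cells stood at 682 and 18.5. The neuroendocrine sums of the tumours between ran from 703 in replicate 1 (2903 over the 37 genes) to 1518 in replicate 10 (4620). Replicate 3, at 5053 over the 37 genes, had 1221. The club and ciliated and the alveolar type 2 sums of the tumours between did not keep the order of the sums over the 37 genes. Replicates 4 and 11, with similar sums over the 37 genes (3878 and 3719), had club and ciliated sums of 1.95 and 1428 and the lowest and highest alveolar type 2 sums, 15.6 and 892. The part of these other cells in the order of the tumours was not tested. RPM replicate 7, which shares its title number with replicate 6, was the highest tumour for none of the 37 genes and for 4.39% of all genes. The genes differed in how much they varied: Fez1 spanned 3.03-fold, Stmn1 2.97-fold and Dbn1 3.26-fold between the lowest and highest RPM tumour, while Tubb2b spanned 61.99-fold and Stmn2 471-fold. Map4 and Camkv were among the exceptions to this order, Map4 being lowest in replicate 6 and Camkv lowest in replicate 9 and highest in replicate 4.

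Relations between genes within RPM were tested over the 11 tumours for 9 genes taken from all roles (Tubb3, Stmn2, Dcx, Mapt, Nefl, Gap43, Crmp1, Kif5c and Rtn1), which gave 36 pairs. Pearson's r passed an adjusted p of 0.05 in 24 pairs and Spearman's rho in 13 (100000 permutations, two-sided, Benjamini-Hochberg over the 36 pairs), and none of those was negative. The median r over the 36 pairs was 0.746. Without RPM replicates 5 and 6 it was 0.307, with single pairs from -0.50 to 0.922, so much of the shared variation rested on those tumours. The closest pair was Dcx and Mapt, with r = 0.944 (permutation, adjusted p = 0.00036) and rho = 0.964 (adjusted p = 0.00072). Without the 2 tumours farthest from the median of Dcx, r was 0.939, and it was 0.922 without RPM replicates 5 and 6. Mapt and Crmp1 (r = 0.941, rho = 0.936), Dcx and Kif5c (r = 0.914, rho = 0.918) and Crmp1 and Kif5c (r = 0.894, rho = 0.855) kept r of 0.823, 0.918 and 0.741 without the 2 farthest tumours. By permutation the adjusted p of these 3 pairs was 0.00036, 0.00101 and 0.0009 for r and 0.0018, 0.00276 and 0.00876 for rho. For Dcx and Mapt the 2 farthest tumours did not include RPM replicate 6. Without RPM replicates 5 and 6 the r of these 3 pairs was 0.875, 0.818 and 0.741. Doublecortin, tau, Crmp1 and Kif5c thus varied together from tumour to tumour also without replicates 5 and 6.

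For Tubb3 the relations depended on the tumours at the extremes. Its r with Crmp1 was 0.746 (permutation, adjusted p = 0.0253; rho = 0.245, adjusted p = 0.514), but -0.13 without RPM replicates 5 and 6, so the relation rested on those tumours. With Rtn1 it was 0.867 (permutation, adjusted p = 0.00607; rho = 0.745, adjusted p = 0.0339), and 0.561 without them. Stmn2 and Gap43, both tied to axon growth, had r = 0.732 (permutation, adjusted p = 0.0249) and rho = 0.70 (adjusted p = 0.0522). Their r was 0.801 without the 2 tumours farthest from the median of Stmn2, RPM replicates 9 and 6. It was 0.597 without RPM replicates 5 and 6. Without RPM replicate 5 alone 8 of the 36 pairs passed, and 13 without RPM replicate 6 alone. With tumours of one title number averaged to 1 point, 17 passed.

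**Figure D5:**
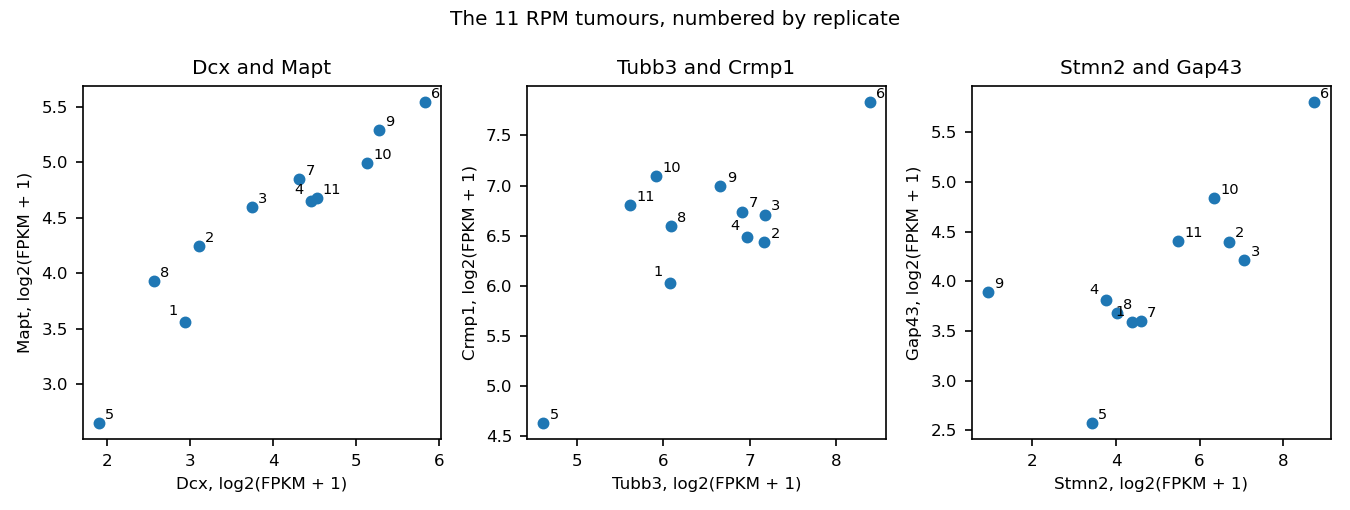
Levels of 3 pairs of genes as log2(FPKM + 1) in the 11 RPM tumours, each point numbered by replicate. Dcx and Mapt (r = 0.944) line up over the whole range, Tubb3 and Crmp1 (r = 0.746) do so through replicates 5 and 6, and replicate 9 stands off the trend of Stmn2 and Gap43 (r = 0.732).

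The same 9 genes were compared with Neurod1, a proneural transcription factor, with p-values adjusted over a family of 18 pairs. Of the 9 pairs with Neurod1, 1 passed by r, that with Stmn2 (r = 0.871, permutation, adjusted p = 0.0117; rho = 0.782, adjusted p = 0.0831), and r was 0.774 without the 2 tumours farthest from the median of Neurod1. Gap43 had r = 0.775 with Neurod1 (permutation, adjusted p = 0.0511) and rho = 0.645 (adjusted p = 0.0952). None of the 9 passed by rho. The number that passed in the family of 18 depended on single tumours, with 8 by r without RPM replicate 9, the tumour with the lowest Stmn2, and 0 without replicate 6.

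Number of Myc alleles was the other contrast the labels allow. Between 9 LSL/LSL and 2 LSL/+ tumours limma called none of the 37 genes over 14862 genes tested, where it called 1 gene in all (0.00673%). At an unadjusted p under 0.05 stood 1 of the 37 genes, beside 17.3% of all genes. That gene was Map4, at 183 and 104.7 FPKM in the LSL/+ tumours and 53.3 to 78.9 in LSL/LSL, so the groups did not overlap. Its difference, LSL/LSL minus LSL/+, was -1.11 ± 0.20 (limma, Benjamini-Hochberg adjusted p = 0.160, from 0.0336 to 0.677 over the alternatives). It was called without RPM replicate 4 alone, where 1 LSL/+ tumour remained and was assumed to vary like the others (-1.51 ± 0.21, adjusted p = 0.0336, limma). Map6 (0.76 ± 0.38, adjusted p = 0.310 by limma) was at 9.41 and 14.9 FPKM in LSL/+ and 10.8 to 35.55 in LSL/LSL. Map1b (0.97 ± 0.50, adjusted p = 0.315 by limma) was at 13.9 and 30.7 FPKM against 19.2 to 78.3.

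A set of 7 further lists places these genes among others of the same machinery. Of 182 tested genes in them, 39 were called higher in RPM and 30 lower with all libraries, beside 18.4% and 22.8% of all genes. Without RPR2 replicate 3 the counts were 29 and 45, beside 16.2% and 28.5% of all genes. Under TPM scaling they were 20 and 36, beside 11.9% and 22.8%. The same shares over all genes stand beside the counts of each list below. The lists were written with earlier results of these data known, and their counts carry no test.

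Among 11 other tubulins 3 were called higher and 2 lower (2 and 3 without RPR2 replicate 3). Tubb5, the beta-tubulin of dividing cells, was at 534 to 1290.0 FPKM in RPM against 405, 315 and 232 in RPR2, and Tuba1b at 834 to 1419 against 634, 567.9 and 377. Tuba1c went the other way, at 4.47 to 59.98 FPKM against 129, 66.5 and 96.3, as did Tuba8, at 0.24 to 1.63 against 7.86, 10.6 and 2.47. Of 24 genes that fold or modify tubulin 5 were called higher and 1 lower (7 and 3). Vash2, which removes the terminal tyrosine of alpha-tubulin, was at 5.22 to 16.6 FPKM in RPM against 1.72, 1.12 and 0.59, and Tpgs2, of the polyglutamylase complex, at 3.98 to 6.94 against 3.15, 3.04 and 1.5.

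Of 35 further microtubule-binding genes 7 were called higher and 3 lower with all libraries, and 3 and 4 without RPR2 replicate 3. Map7, an epithelial microtubule protein, was lower in RPM, at 1.62 to 9.79 FPKM against 30.6, 28.2 and 14.04, while Map1s was higher, at 10.6 to 19.3 against 6.58, 9.25 and 9.74. Camsap3, which anchors microtubules in epithelia, was lower (2.60 to 10.9 FPKM against 11.3, 13.4 and 37.6), a call that was lost without RPR2 replicate 3. Fez2, the paralog of Fez1, was at 8.30 to 12.8 FPKM against 6.48, 6.85 and 4.17, a difference of 0.64 ± 0.17 where that of Fez1 was 4.84 ± 0.28. Among 29 motor genes 5 were called higher and 3 lower (2 and 6). Klc3, a kinesin light chain, was at 0.13 to 2.11 FPKM among RPM tumours and at 27.0, 38.2 and 39.8 in RPR2, and Klc4 at 6.11 to 8.41 against 8.93, 10.3 and 25.3. Kif21b, a neuronal kinesin, was higher in RPM, at 1.53 to 9.64 FPKM against 0.93, 0.55 and 1.26, and so was the dynein chain gene Dync1li1, at 24.3 to 42.98 against 22.4, 23.6 and 13.3.

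Of 13 other intermediate filament genes 2 were called higher and 6 lower, with the same counts without RPR2 replicate 3. The lower ones included the keratins of simple epithelia. Krt18 was at 2.83 to 36.9 FPKM in RPM against 569, 604 and 573 in RPR2, Krt8 at 0.75 to 45.6 against 676, 699 and 467, and Krt7 at 3.15 to 37.8 against 481, 509.9 and 112. Bfsp1, a filament gene known from the lens, was at 0.11 to 0.77 FPKM against 12.4, 8.18 and 2.08. In RPM the neurofilament genes Ina, Nefh, Nefm and Nefl thus had higher medians, from 20.1 to 95.9 FPKM, than these keratins (7.58 to 11.9), whereas in every RPR2 tumour the keratins were higher.

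Axon guidance and adhesion genes were called in both directions. Of 46 tested, 5 were called higher and 14 lower in RPM (4 and 20 without RPR2 replicate 3). The adhesion gene Chl1 was at 0.02 to 0.96 FPKM in RPM against 25.4, 31.2 and 1.91, the semaphorin receptor gene Plxnb1 at 5.55 to 17.5 against 64.0, 59.8 and 22.6, and the ephrin gene Efnb1 at 1.75 to 7.42 against 10.1, 21.03 and 19.3. The ephrin receptor gene Epha3 was higher, at 1.35 to 8.36 FPKM against 0.14, 0.05 and 0.06. Of 24 further growth cone and membrane genes 12 were called higher and 1 lower (9 and 3). Fscn1, which bundles actin in filopodia, was at 58.8 to 228 FPKM in RPM against 21.8, 8.62 and 7.13, and Lingo1, a subunit of the Nogo receptor complex, at 7.54 to 15.7 against 0.88, 0.10 and 0.05. Marcksl1 was at 163 to 489.6 FPKM against 84.2, 50.7 and 128, and the actin-severing gene Cfl2 at 28.6 to 59.6 against 20.2, 19.9 and 19.4.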

How the data were processed

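RNA of 11 RPM and 3 RPR2 tumours was sequenced from stranded, oligo-dT selected libraries, single end per the series' design text. The authors deposited one table of FPKM values. RSEM 1.2.12, Bowtie 1.0.1 and mm10 are named in the submitters' processing notes, with no settings. Symbols were found for 46005 of 46517 identifiers. Coordinates are those of GENCODE on GRCm38 (mm10), promoter sequences those of RefSeq. The members and all gene lists were chosen with earlier results of these data known. Members with a mean of at least 10 FPKM in either model are described singly. In each further list up to 4 genes with the smallest p and groups that do not overlap are named, and the 3 members with the smallest p in the allele contrast. Values were fitted as log2(FPKM + 1) with limma 3.58.1 in R 4.3.3 (trend, Benjamini-Hochberg, 0.05), tested on simulated data. Depth was estimated from single-read steps at an assumed read length of 50 bases. At that depth 3 reads on 2 kb equal 0.0769 to 0.0884 FPKM for RPM libraries. For RPR2 they equal 0.0674 to 0.0722, which covers counting error alone. Libraries sharing a title number had a consensus correlation of 0.762 in the model fit. Alternatives were other pseudocounts (0.1 and 0.01), filters, scalings, weights, title number as a random effect, LSL/LSL only and leaving out each library. Protein sequences were not analysed here. Pairs with 1 further gene are in the family of 18 relations with a factor and are not reported here.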

Additional observations from a re-analysis of the deposited data

Results flagged for a closer look

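A set of 4 values of RPM replicate 5 stood far from the other LSL/LSL tumours. Each group of 9 LSL/LSL tumours was examined at both ends for the 37 genes, 74 tests in all, with the gap to the nearest tumour divided by the whole range on the log2(FPKM + 1) scale and a critical value of 0.493. Chance flags about 1 in 20 groups. The ratio was 0.658 for Nefh (5.27 FPKM, with the other 8 tumours at 20.1 to 38.8), 0.606 for Nefm (2.92, others 14.7 to 37.6), 0.546 for Nefl (2.23, others 9.89 to 28.9) and 0.535 for Stmn3 (27.3, others 75.5 to 180.02). The 3 neurofilament genes and a stathmin were thus low in the same tumour, where neuroendocrine markers were the lowest and club cell markers the highest of the RPM tumours. Their part in these values was not tested.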

How the results depend on the processing

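With all 37 genes, the count called higher in RPM stayed within 1.5 times 22 in every setting, at 17 to 25 when single libraries were left out, and the count called lower stayed at 0 to 0 there. Array weights called 2 lower, Map4 (-0.52) and Prph (-0.66), and 66 genes of the further lists lower, beside 41.8% of all tested genes. TPM scaling called 20 of the further genes higher, beside 11.9% of all tested genes. Over all tested genes, single libraries left out gave 14.7 to 19.3% higher and 16.8 to 28.5% lower. Leaving out single libraries gave 29 to 41 further genes higher and 27 to 45 lower, 0 to 1 gene by allele, 8 to 27 relations between the genes and 0 to 8 of the 18 relations with a transcription factor. Median-of-ratios scaling gave 2 of the 18. The sign of 6 genes that were not called changed: Prph with a pseudocount of 0.01 (0.015) and without RPR2 replicate 1 (0.25) or 2 (0.04), Stmn1 (-0.13) and Dpysl2 (0.11) under quantile normalization, Dpysl2 without RPM replicate 5 (0.042), and, under array weights and without RPR2 replicate 3, Map1a (-0.41 and -0.71), Map4 (-0.52 and -0.42) and Map6 (-0.48 and -0.77). The cause was not tested. With single libraries left out, the differences ranged from -0.71 to 0.73 for Map1a, -0.42 to 0.91 for Map4, -0.77 to 1.17 for Map6, -0.91 to 0.25 for Prph and -0.13 to 0.042 for Dpysl2. In the allele contrast 85 of 738 signs over genes and settings changed, none of them in a call. Adding rank counts under other scalings and relations without RPM replicates 5 and 6 was decided after seeing the data. The protein comparison was not run. No paired analysis was possible because the models share no title number in the labels.

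The numbers of RPR2 tumours (3, with 1 unlike the others) and of LSL/+ tumours (2) limit precision, as does depth for low values. Values near 0.01 to 0.1 FPKM correspond to few reads, and ratios to them are not given. Read sharing limits Tuba1a, Tubb2a and Tubb2b. Where nothing says that libraries came from separate animals, the p-values measure only the spread between libraries.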
